A study of Homo sapiens with 8 samples.

Results

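The genes described here encode the enzymes that add poly(A) tails in the nucleus, the proteins that coat those tails and the proteins that regulate the coat. They are PAPOLA, PAPOLG, PABPN1, ZC3H14, PABPC1, PABPC4, PAIP1 and PAIP2, grouped by their known function, and make up 8 of the 78932 genes in the count tables. All 8 were among the 12618 genes that passed the filter on low counts. Libraries came from HCT-116, a human colorectal cancer cell line, engineered so that NUDT21 carries a dTAG degradation tag. NUDT21 encodes a subunit of cleavage factor Im (CFIm) that binds UGUA in nascent RNA and is known to favour distal poly(A) sites. One group of 4 libraries came from cells given DMSO with JTE-607, and the other 4 from cells given dTAGV1 with JTE-607. DMSO is the solvent, dTAGV1 is a small molecule that recruits tagged proteins for degradation, and JTE-607 inhibits the endonuclease that cleaves pre-mRNA before tail addition. Both groups thus carried the tag and received JTE-607, and the comparison concerns dTAGV1 on that background. Doses, times and whether the line is a single clone are not given in the sources used here. The labels number the libraries as replicates without saying whether they came from separate cultures, so p-values measure the spread between these libraries, which may be technical.

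A poly(A) tail is made in the nucleus after cleavage of the pre-mRNA. The canonical poly(A) polymerases PAPα (PAPOLA) and PAPγ (PAPOLG) extend the cut end, and the nuclear binding protein PABPN1 makes that extension processive and limits tail length. In the cytoplasm PABPC1 and PABPC4 take over the tail and contact the translation initiation machinery. PAIP1 binds cytoplasmic poly(A) binding protein and promotes translation, whereas PAIP2 displaces it from the tail and represses translation.

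Total RNA was converted to 3′ end libraries with the QuantSeq forward kit, in which an oligo(dT) primer places reads near the poly(A) site. Values are sense-strand counts per 1000000 of the library after TMM scaling (CPM). Sense-strand counts summed to 3447842 to 4291256 per library. The tagged gene NUDT21 was lower in every dTAGV1 library, with 15 to 43 counts against 104 to 139 with DMSO (log2 fold change -1.95 ± 0.18, SE). Epithelial markers were detected in all libraries, and their summed level was 1716 to 2000 CPM with DMSO and 1309 to 1399 CPM with dTAGV1. Among these 6, KRT18, KRT19 and CLDN4 were lower, EPCAM was higher (273 to 331 CPM), and KRT8 and CDH1 were not called. Of 9 markers of other cell types, COL3A1, DCN and ALB were at 0 in every library, and the summed level of all 9 was 17.7 to 23.1 CPM with DMSO and 11.3 to 15.6 CPM with dTAGV1. Most of that sum was COL1A1, with 37 to 73 counts. The part of these differences in the results below was not tested.

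Of the 8 genes, PAPOLG and PABPN1 were higher with dTAGV1, PAIP2 was lower, and the other 5 were not called (quasi-likelihood F test of edgeR, p adjusted by Benjamini-Hochberg over all tested genes, threshold 0.05). In the same fit 57.9% of all tested genes were called, 29.4% higher and 28.5% lower, so that 3 of 8 is not above the background. The median log2 fold change of the 8 genes was 0.02, against 0.01 for all tested genes. Their median absolute log2 fold change was 0.08, against 0.42 for all. Libraries of the groups did not overlap in CPM for the 3 called genes, and they did not overlap for 50.9% of all tested genes. The fall of PAIP2 lay in reads that also fit an exon on the other strand, which the tables allow to be counted apart.

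**Figure D1:**
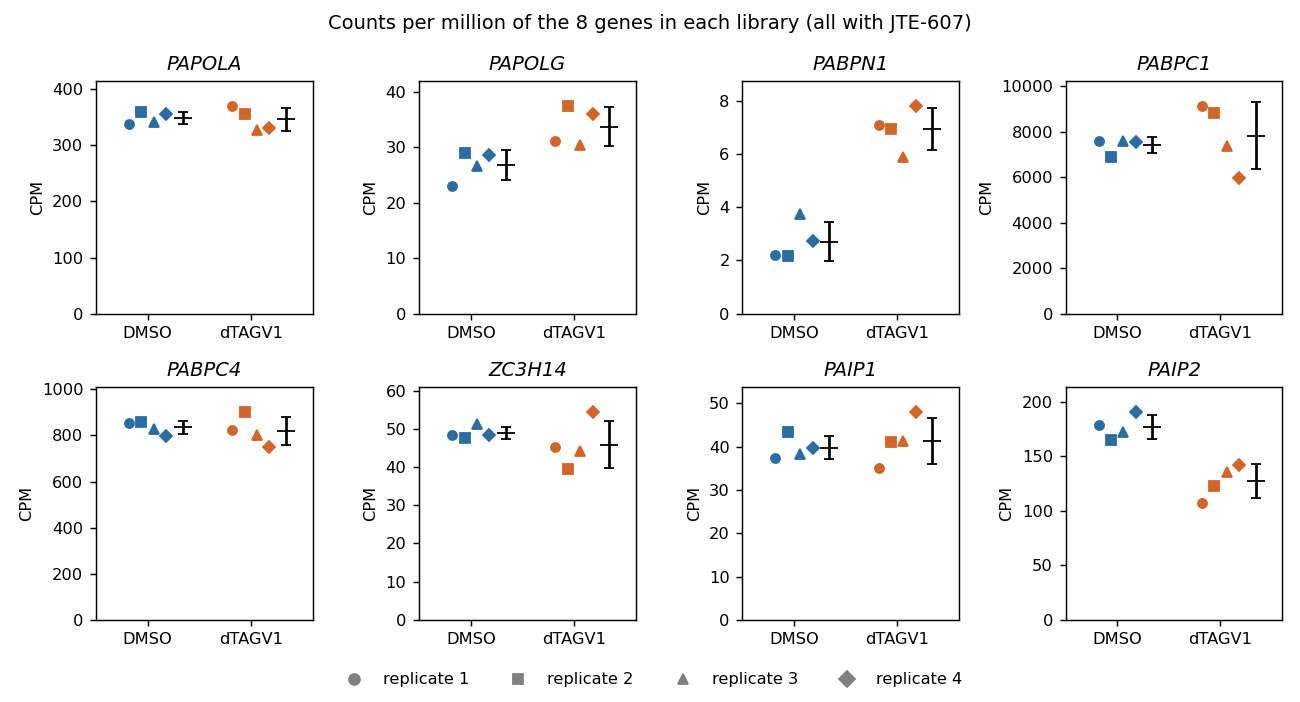
CPM (vertical axis, from 0) of each gene in the 4 DMSO and 4 dTAGV1 libraries, all with JTE-607; symbols give the replicate number, and the bar beside each group is the mean ± SD. PABPN1, PAPOLG and PAIP2 show no overlap between the groups, and PABPC1 has its widest spread with dTAGV1, from 5952 to 9142 CPM.

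Among the polymerases, PAPOLA (ENSG00000090060; GRCh38 chromosome 14, 96501433 to 96567111, plus strand) did not pass the test. It stood at 337, 359, 342 and 355 CPM in replicates 1 to 4 of DMSO, and at 370, 355, 328 and 331 CPM in those of dTAGV1. The dTAGV1 libraries spread to both sides of the DMSO libraries, with means of 348 ± 10.4 and 346 ± 20.01 CPM (SD, n = 4 each). On the log2 scale the fold change was -0.01 with a 95% interval of -0.15 to 0.13 (edgeR, Benjamini-Hochberg adjusted p = 0.904). PAPOLG, the second nuclear polymerase (ENSG00000115421; chromosome 2, 60756230 to 60802085, plus strand), stood at 23.0, 28.9, 26.7 and 28.7 CPM with DMSO and at 31.2, 37.5, 30.3 and 35.9 CPM with dTAGV1. The lowest dTAGV1 library was just above the highest DMSO library. Means were 26.8 ± 2.77 and 33.7 ± 3.50 CPM (SD, n = 4 each), with a fitted log2 fold change of 0.33 ± 0.13 (SE; edgeR, Benjamini-Hochberg adjusted p = 0.0275). That call is not firm. It was lost under DESeq2 (adjusted p = 0.0604), under scaling by library size alone, and when DMSO replicate 1 or 3, or dTAGV1 replicate 2 or 4, was left out, where the log2 fold change was 0.258, 0.321, 0.267 and 0.279.

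PABPN1 (ENSG00000100836; chromosome 14, 23321289 to 23326185, plus strand) had few counts: 8, 9, 14 and 11 with DMSO, and 25, 23, 20 and 33 with dTAGV1. Every dTAGV1 library was above every DMSO library. It passed the filter on low counts through the dTAGV1 libraries, so a fall from the DMSO level would not have been tested. Without that filter the log2 fold change was 1.34 (edgeR, Benjamini-Hochberg adjusted p = 0.000134). The means were 2.70 ± 0.734 and 6.93 ± 0.789 CPM (SD, n = 4 each), with a fitted log2 fold change of 1.36 ± 0.28 (SE; edgeR, Benjamini-Hochberg adjusted p = 0.000175). These counts may be only part of the gene's reads. The read-through gene BCL2L2-PABPN1 lies on the same strand, and a read that fits exons of both is counted to neither. In GENCODE 29 the read-through gene shares 653 exon bases with PABPN1 and ends at 23325369, which leaves the last 816 bases to PABPN1 alone. In the RefSeq table for GRCh38.p14 both genes end at 23326163, so no part of the 3′ end is free there. Which annotation was used for the deposited counts is not given in the sources used here. BCL2L2-PABPN1 itself had 0 counts in all libraries but dTAGV1 replicate 3, which had 1. The rise is thus one of the reads assigned to PABPN1 alone, and how many reads the overlap removed was not measured. BCL2L2, the upstream gene of the read-through pair, encodes an anti-apoptotic protein and was singled out after its values were seen. It fell from 15.2 ± 1.69 to 6.66 ± 1.39 CPM (SD, n = 4 each), equal to a fitted log2 fold change of -1.20 (edgeR, Benjamini-Hochberg adjusted p = 1.2e-05), and the overlap of its exons with the read-through gene was not tested.

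ZC3H14, the other nuclear protein of the group, binds poly(A) through zinc fingers (ENSG00000100722; chromosome 14, 88562909 to 88627596, plus strand). It stood at 48.4, 47.5, 51.2 and 48.5 CPM with DMSO and at 45.4, 39.6, 44.2 and 54.4 CPM with dTAGV1. The dTAGV1 libraries lay on both sides of the DMSO libraries. The log2 fold change was -0.08 with a 95% interval of -0.31 to 0.14 (edgeR, Benjamini-Hochberg adjusted p = 0.516). EML5 lies across its 3′ end on the other strand. ZC3H14 was the one gene of the 8 with more than 1 opposite-strand read in any library, 4 to 15 with DMSO and 8 to 12 with dTAGV1, a log2 fold change of 0.16 ± 0.38 (SE; edgeR on opposite-strand counts, Benjamini-Hochberg adjusted p = 0.765).

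The cytoplasmic binding proteins did not pass the test. PABPC4 (ENSG00000090621; chromosome 1, 39560816 to 39576790, minus strand) stood at 852, 858, 830 and 799 CPM with DMSO and at 824, 901, 803 and 751 CPM with dTAGV1. Its log2 fold change was -0.03 with a 95% interval of -0.17 to 0.11 (edgeR, Benjamini-Hochberg adjusted p = 0.76). PABPC1 (ENSG00000070756; chromosome 8, 100685816 to 100722809, minus strand) stood at 7599, 6910, 7599 and 7567 CPM with DMSO and at 9142, 8830, 7399 and 5952 CPM with dTAGV1. The DMSO libraries sit close together, whereas dTAGV1 replicates 1 and 2 lie above all of them and dTAGV1 replicate 4 below all of them. Means were 7419 ± 339 and 7831 ± 1464 CPM (SD, n = 4 each), with a log2 fold change of 0.08 and a 95% interval of -0.16 to 0.31 (edgeR, Benjamini-Hochberg adjusted p = 0.563). Without dTAGV1 replicate 4 the log2 fold change was 0.173 and passed (edgeR, Benjamini-Hochberg adjusted p = 0.0319). The same dTAGV1 libraries differed in the share of reads given to no gene, which was 62.8%, 62.8%, 59.0% and 56.7% in replicates 1 to 4 and 58.0% to 59.2% with DMSO. The part of this difference in the PABPC1 values was not tested. PABPC1 has processed pseudogene copies, and reads that fit several loci are tallied apart in the tables, not in its counts.

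PAIP1 (ENSG00000172239; chromosome 5, 43526267 to 43557758, minus strand) did not pass either. It stood at 37.4, 43.4, 38.4 and 39.8 CPM with DMSO and at 35.1, 41.1, 41.2 and 48.0 CPM with dTAGV1. The log2 fold change was 0.06 with a 95% interval of -0.17 to 0.29 (edgeR, Benjamini-Hochberg adjusted p = 0.671).

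**Figure D2:**
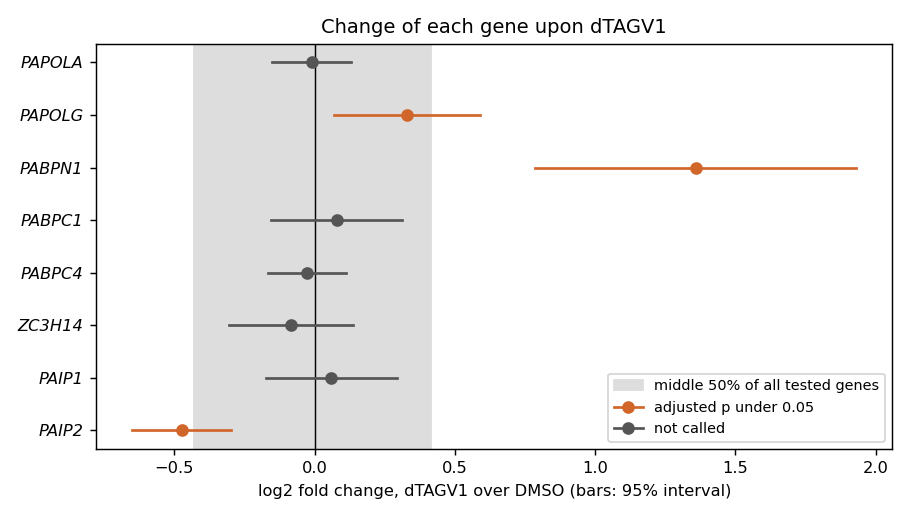
Log2 fold change of dTAGV1 over DMSO (horizontal axis) for each gene with its 95% interval; orange marks an adjusted p under 0.05 and the grey band spans the middle 50% of all tested genes, from -0.43 to 0.42. PABPN1 lies outside the band at 1.36 and PAIP2 at -0.47, while the 5 genes not called lie inside it with their intervals.

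PAIP2, the repressor of cytoplasmic poly(A) binding protein, fell (ENSG00000120727; chromosome 5, 139341587 to 139369720, plus strand). It stood at 178, 165, 173 and 190 CPM in replicates 1 to 4 of DMSO, and at 107, 123, 136 and 142 CPM in those of dTAGV1. All dTAGV1 libraries were below all DMSO libraries. Means were 177 ± 10.8 and 127 ± 15.5 CPM (SD, n = 4 each), with a fitted log2 fold change of -0.47 ± 0.09 (SE; edgeR, Benjamini-Hochberg adjusted p = 3.68e-05). The counts irrespective of strand gave another picture, with a log2 fold change of 0.085 that did not pass (edgeR, Benjamini-Hochberg adjusted p = 0.484). Those counts drop every read that also fits an exon on the other strand, so the gap between them and the sense counts gives the number of such reads (covered reads, as against free reads).

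In GENCODE 29, PAIP2 shares exon bases on the other strand with AC135457.1 only. Of the last PAIP2 exon (139368733 to 139369720), the final stretch of 636 bases from 139369082 to 139369717 is covered by that gene, and the first 349 bases are free. A further 28 bases of an upstream exon are covered. The border falls 2 bases past an annotated PAIP2 3′ end at 139369080, and the other annotated ends of principal transcripts lie at 139369698 and 139369720, inside or just past the covered stretch. Apart from those 28 bases, covered reads would reach past the annotated proximal end, provided that the annotation used for counting has the same border. The border is so near that end that transcripts ending a few bases past 139369080 could also give covered reads. Covered reads therefore cannot be assigned to transcripts with a distal end alone. That annotation was not GENCODE 29 as a whole, since 57356 of the 78932 counted identifiers are in GENCODE 29 and PABPC1 has covered reads where GENCODE 29 has no opposite-strand exon. The position of the covered PAIP2 reads was therefore not measured, only their number. The position of the free reads was not measured either. Under the GENCODE 29 border they would lie outside the covered stretch and could come from transcripts with either end. AC135457.1 had 0 sense-strand counts and PAIP2 had 0 opposite-strand counts in every library, so the subtraction is exact here.

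The last 30 bases before the proximal and the distal end, and the 30 bases around the UGUA nearest the distal end, are shown because the GENCODE 29 border lies between these ends. They were read 5′ to 3′ from the GENCODE 29 transcripts on GRCh38, plus strand, at chr5:139369051-139369080, chr5:139369691-139369720 and chr5:139369647-139369676. Capitals mark the poly(A) signal, AATAAA or its variant ATTAAA, in the first pair and TGTA, the DNA spelling of the CFIm motif, in the last.
PAIP2 proximal end: gtgaacaagcaccaaATTAAAagacctaaa
PAIP2 distal end: taaaaaAATAAAtaatagtagaactgagca
PAIP2 distal TGTA: aagttgaaaatatTGTAaaaaaattatatt
The proximal end carries the variant signal, which starts 15 bases before the end, and no TGTA was found in its last 200 bases. The distal end carries the common signal, 24 bases before the end, and a TGTA that starts 61 bases before it. Only the sense strand was searched, and a match is not a measured binding site.

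Covered reads numbered 325, 384, 368 and 436 in replicates 1 to 4 of DMSO, and 119, 139, 143 and 193 in those of dTAGV1. Free reads numbered 328, 299, 279 and 334, and 258, 268, 318 and 407. In CPM the covered reads went from 96.9 ± 8.26 to 40.9 ± 5.05 (SD, n = 4 each), with no overlap between groups. Entered into the fit as genes of their own, the covered reads had a log2 fold change of -1.24 ± 0.10 (SE; edgeR, Benjamini-Hochberg adjusted p = 1.99e-10). The free reads, at 79.7 ± 8.00 and 86.0 ± 10.9 CPM (SD, n = 4 each), had one of 0.11 ± 0.10 (SE; edgeR, Benjamini-Hochberg adjusted p = 0.336). The fall of PAIP2 thus lay in the covered reads.

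As a share of all PAIP2 sense reads, covered reads made up 49.8%, 56.2%, 56.9% and 56.6% with DMSO and 31.6%, 34.2%, 31.0% and 32.2% with dTAGV1. Counting error alone gave each share a 95% Wilson interval of 3.49 to 4.67 points on either side. The group means were 54.9% ± 3.41 and 32.2% ± 1.37 (SD, n = 4 each). They differed by -22.6 points, and the groups did not overlap. The log2 ratio of covered to free reads changed by -1.35 ± 0.12 (SE; limma, Benjamini-Hochberg adjusted p = 6.9e-09 over 985 genes with enough reads in both parts). Of those 985 genes, 24.1% were called and 25.9% had shares that did not overlap, so a shift of this kind was not particular to PAIP2. A covered stretch can lie anywhere in the other genes, and no direction towards proximal or distal ends was read from them. This comparison was chosen after seeing the data.

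**Figure D3:**
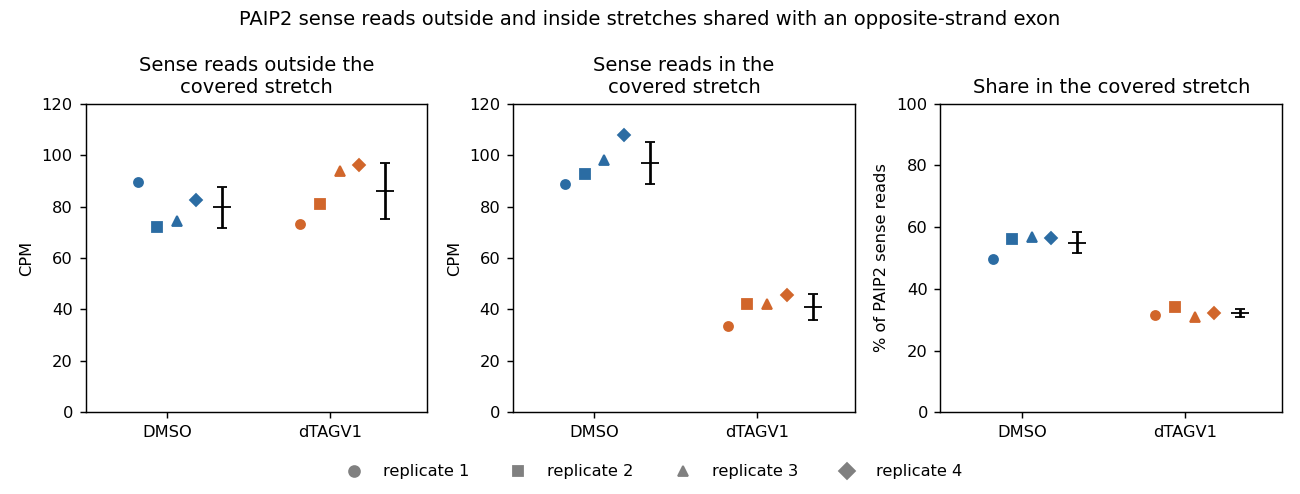
PAIP2 sense reads outside stretches shared with an opposite-strand exon (left, CPM), inside them (middle, CPM) and the share inside them (right, %), per library with mean ± SD; symbols give the replicate number. The reads inside fall from about 96.9 to 40.9 CPM while those outside overlap between the groups.

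PABPC1 was the other gene of the group that met the limits for this test. ZC3H14 had enough reads in both parts but too many opposite-strand reads. The covered share of PABPC1 was 28.4%, 26.6%, 29.7% and 30.1% with DMSO, and 29.4%, 29.3%, 23.0% and 18.4% with dTAGV1. Again dTAGV1 replicates 3 and 4 stood apart from replicates 1 and 2. The log2 ratio for PABPC1 changed by -0.29 ± 0.21 (SE; limma, Benjamini-Hochberg adjusted p = 0.439). GENCODE 29 has no opposite-strand exon over PABPC1, so where its covered reads lie is not known here. For the remaining 6 genes the difference between the count types was 0 to 30 reads in a library, or -1 where a single opposite-strand read entered, and no split was tested.

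The annotated 3′ ends of the group were searched for the same motifs, on the sense strand of 1 principal transcript per gene. TGTA lay within the last 100 bases for 6 of the 8 genes, PAPOLG and PABPC1 being the exceptions, and within the last 200 bases for all 8. Among 10637 tested genes with such an end, 55.4% had TGTA within 100 bases and 72.8% within 200. PAPOLA, whose level did not pass the test, had 7 within 200 bases, and PAIP2 had 1. PABPN1 also had 1, which starts 5 bases before the end and so lies past its AATAAA. All 8 genes had AATAAA or ATTAAA within the last 50 bases, as had 78.8% of the 10637. PAPOLA had 4 distinct 3′ ends in the basic annotation, spread over 34863 bases, and ZC3H14 had 9, so changes of site within these genes could pass unseen in one count per gene. The ends of PAPOLG and PABPN1, the genes called higher, are shown for comparison with those of PAIP2, from chr2:60798934-60798963 and chr14:23326156-23326185 on the plus strand, with the signal in capitals.
PAPOLG end: ataagAATAAAatcacataaccaagttgaa
PABPN1 end: AATAAAaattgtttggccttttgggtgtaa
Both carry AATAAA, 25 and 30 bases before the end.

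Ratios of related genes within a library do not depend on scaling, and 4 were compared by 2-sided exact permutation tests, for which 4 libraries against 4 allow no p below 0.0286. PAPOLA over PAPOLG, the balance of the polymerases, changed by -0.34 on the log2 scale (exact permutation p = 0.0286, Benjamini-Hochberg adjusted p = 0.0381), from 3.70 ± 0.12 to 3.36 ± 0.17 (SD, n = 4 each). PAIP1 over PAIP2, the activator over the repressor, changed by 0.53 (exact permutation p = 0.0286, adjusted p = 0.0381), from -2.15 ± 0.16 to -1.61 ± 0.07. In the counts irrespective of strand this last ratio changed by -0.06 (exact permutation, adjusted p = 0.714), since the covered PAIP2 reads are not in them. PABPN1 over ZC3H14 changed by 1.45 (exact permutation p = 0.0286, adjusted p = 0.0381), with the limit on PABPN1 counts given above. PABPC1 over PABPC4 changed by 0.09 (exact permutation p = 0.429, adjusted p = 0.429), from 3.15 ± 0.10 to 3.24 ± 0.20. The pseudocount in these ratios was 0.5. Each of the 3 ratios that passed lost its call in 6 of the 8 runs that left out 1 library (exact permutation, adjusted p up to 0.0762), with its direction kept. PAPOLA over PAPOLG and PABPN1 over ZC3H14 also lost it in the counts irrespective of strand (exact permutation, adjusted p = 0.0571). Their changes there were -0.342 and 1.40, and each still had the smallest p possible. PAIP1 over PAIP2 no longer had it, so the adjustment over 4 ratios allowed them nothing below 0.0571. PABPN1 over ZC3H14 also stood at this limit in each of its losses with 1 library left out.

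Genes that overlap the 8 or lie within 5 kb had few counts. Of the 12 present in the tables, AL163051.1 at PAPOLA, EML5 at ZC3H14 and AC114956.2 at PAIP1 were tested, and none was called, with log2 fold changes of 0.57, 0.46 and 0.29 (edgeR, Benjamini-Hochberg adjusted p = 0.16, 0.251 and 0.387). AL162171.3 had at most 8 counts in a library, and BCL2L2-PABPN1 and SLC23A1 at most 1. RNU6-1092P, MIR7705, PPIEL, AL365277.1, SNORA55 and AC135457.1 were at 0 in every library.

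Genes related by function were taken from 6 lists. Terminal nucleotidyltransferases other than the canonical pair add A or U to RNA ends; of 12 listed, 10 were tested, 4 were higher and 1 lower. TENT5A, a cytoplasmic poly(A) polymerase, rose most, from 96.2 ± 13.6 to 514 ± 62.0 CPM (SD, n = 4 each), with a fitted log2 fold change of 2.42 ± 0.10 (SE; edgeR, Benjamini-Hochberg adjusted p = 3.46e-14). TUT7, a uridylyltransferase, had a log2 fold change of 0.76, and TENT5B, a relative of TENT5A, one of -0.59. The median of this list was 0.14.

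Of 7 other poly(A) binding protein genes, only PABPN1L and PABPC1L had enough counts to be tested. PABPN1L rose from 1.24 ± 0.647 to 5.99 ± 1.04 CPM (SD, n = 4 each), with a fitted log2 fold change of 2.26 ± 0.35 (SE). Its DMSO level was near the floor. It passed the filter on low counts through the dTAGV1 libraries, so a fall from that level would not have been tested. PABPC1L fell from 20.2 ± 3.37 to 7.76 ± 2.06 CPM, with a fitted log2 fold change of -1.37 ± 0.20 (SE). Both passed the test. PABPN1L is an embryonic relative of PABPN1, and PABPC1L is best known from oocytes.

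Partners of the cytoplasmic binding protein numbered 21, of which 20 were tested, with 6 higher, 2 lower and a median of 0.07. MKRN1, a ubiquitin ligase that binds PABPC1, had a log2 fold change of 0.73, and PAN3, a subunit of a deadenylase recruited by the binding protein, one of 0.55. The lower ones were LARP4, a poly(A) and PABPC1 binding protein, at -0.44, and EIF4G1, the initiation scaffold that PABPC1 contacts, at -0.33. PAIP2B, the paralogue of PAIP2 and named after its values were seen, had a log2 fold change of -0.46 ± 0.31 (SE; edgeR, Benjamini-Hochberg adjusted p = 0.205).

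Of the 4 subunits that recruit the polymerase to the poly(A) signal, CPSF1, WDR33 and FIP1L1 were higher, at 0.69, 0.35 and 0.26, and CPSF4 did not pass at -0.19; FIP1L1 and CPSF4 are given after their values were seen, to complete the list. Among 11 genes of nuclear poly(A) RNA surveillance, 5 were higher and 2 lower, with a median of 0.05. RBM7, the RNA binding subunit of the NEXT complex, had a log2 fold change of 1.38, and NCBP2, the small cap binding subunit, one of 0.82. EXOSC10, a nuclear exosome nuclease, had one of -0.32, and RBM26 one of -0.30. Of 13 export genes 12 were tested, with 1 higher and 3 lower and a median of -0.04. THOC5, a subunit of the THO complex, had a log2 fold change of 0.47, and the lowest were GLE1 at -0.46 and NXT1 at -0.45. All called values of these lists passed at an adjusted p under 0.05 (edgeR, Benjamini-Hochberg), and counts of calls stand beside the 57.9% of all tested genes.

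**Figure D4:**
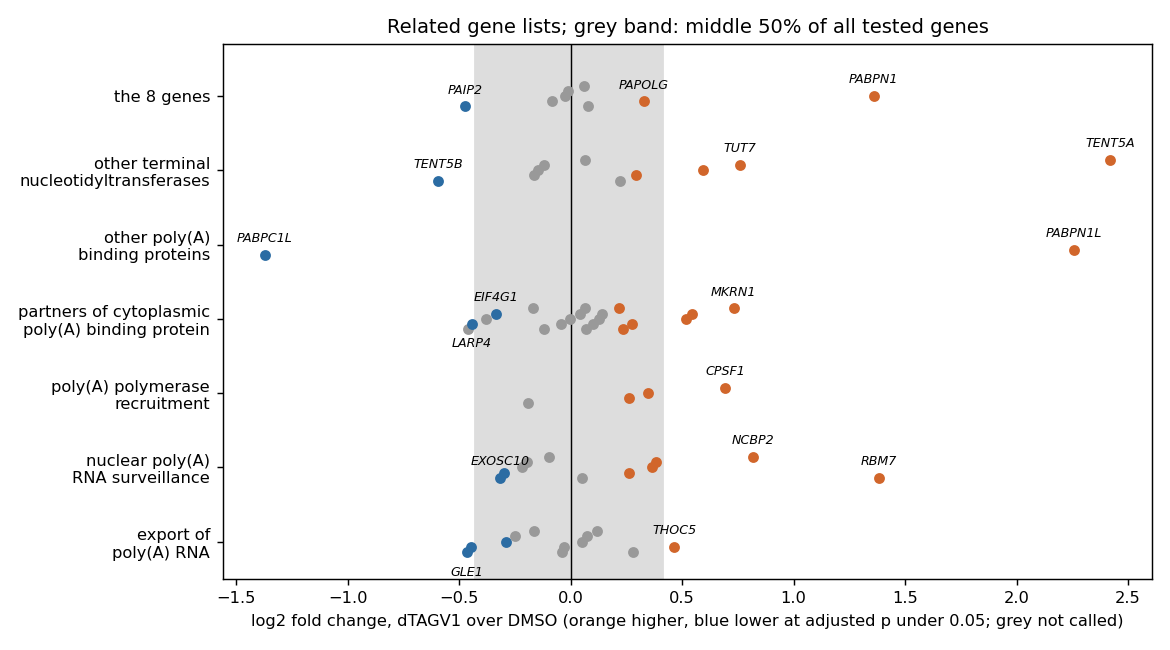
Log2 fold change of dTAGV1 over DMSO (horizontal axis) for each tested gene of the group and of the 6 lists (rows); orange and blue points were called higher and lower, grey points were not called, and the grey band spans the middle 50% of all tested genes. TENT5A at 2.42 and PABPN1L at 2.26 lie farthest to the right and PABPC1L at -1.37 farthest to the left.

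For each called gene of the group, the tested gene with the most similar profile was sought over the 8 libraries, by Pearson's r of log2 CPM among genes of at least 10 CPM. CERT1 was nearest to PAPOLG (r = 0.984), CAPZA2 to PABPN1 (r = 0.991) and KRT18, an epithelial keratin and one of the markers above, to PAIP2 (r = 0.986). With 9247 candidates for PAPOLG and PAIP2 and 9248 for PABPN1, and with libraries that fall into treatment groups, such values describe these 8 libraries only.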

How the data were processed

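Reads were counted per Ensembl gene by the authors, and the deposited values are whole-number counts in 3 columns (irrespective of strand, sense, opposite strand) below 4 summary lines for unassigned reads. Those lines held 56.7% to 62.8% of reads and stayed out of library sizes and tests. The submitters' processing notes name FastQC, fastp, STAR, HTSeq and DESeq2 with build GRCh38; versions, annotation and use of molecular identifiers are not given in the sources used here, so Wilson intervals of read shares cover counting error only. Gene symbols were looked up by identifier (61481 of 78932 found), and coordinates and transcripts from GENCODE 29 (57356 identifiers found).

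Sense counts were tested with edgeR 4.0.16 in R 4.3.3 (filterByExpr, TMM, robust quasi-likelihood F test, Benjamini-Hochberg adjustment over 12618 genes, threshold 0.05); an interval of a log2 fold change is the estimate ± the t quantile times SE. Simulated counts had the library sizes of this comparison (12618 genes) and the same dispersion for all genes. Of 67 genes changed by 0.5 on the log2 scale 29.9% were recovered, of 65 changed by 1 87.7%, and of 68 changed by 2 98.5%. There were 9 false calls. Far fewer genes were changed there than the 57.9% called in the data, so these shares are not the sensitivity of the real comparison. Covered reads are sense counts minus counts irrespective of strand. The log2 ratio of covered to other reads (pseudocount 0.5) was tested with limma 3.58.1 in 985 genes. These had a mean of at least 10 reads in each part and opposite-strand reads of at most 1%. On simulated data 98.98% of 98 altered genes were recovered, with 4 false calls. All altered genes there shifted by the same size, up or down, and the spread between libraries was set in advance. Fewer genes were altered than the 24.1% called in the data, so this share is not the sensitivity of the real comparison.

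Members, lists and tests were chosen with earlier results of these data known. Named are all 8 members, genes of the tables that overlap them or lie within 5 kb, up to 2 called genes each way per list and the nearest profile of each called member. Alternatives were RLE and library-size scaling, DESeq2 1.42.0, limma-voom, 2 other filters, counts irrespective of strand, a replicate block, non-robust dispersions, a fold change of 1.2, a pseudocount of 1, added read-through counts and leaving out each library. Figures used matplotlib 3.10.9.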

Additional observations from a re-analysis of the deposited data

Results flagged for a closer look

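PABPC1 in DMSO replicate 2 stood at 6910 CPM, while the other DMSO libraries lay between 7567 and 7599 CPM, so this library was far from the rest of its group. Chance flags about 1 in 20 groups in this way, and 16 groups (8 genes in each treatment) were examined. PABPC1 was the only gene with such a library, and it occurred in the DMSO group, whereas the wider spread of PABPC1 with dTAGV1 (5952 to 9142 CPM) held no single distant library.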

How the results depend on the processing

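PAPOLG lost its call under scaling by library size alone (log2 fold change 0.255, adjusted p = 0.0887), DESeq2 (0.320, adjusted p = 0.0604), no filter on low counts (0.307, edgeR adjusted p = 0.0755) and a tested fold change of 1.2 (0.329, edgeR adjusted p = 0.225); leaving out 1 library gave 0.258 to 0.364 with edgeR adjusted p-values of 0.0233 to 0.0955. The number of genes called higher was then 1, as it was with a mean of at least 100 counts, under which PABPN1 was not tested, and it was 1 to 2 with a library left out. With counts irrespective of strand PAIP2 was at 0.0845 (edgeR adjusted p = 0.484), and 0 genes were called lower, because its covered reads are left out. PABPC1 ran from -0.0140 to 0.173 with a library left out and passed without dTAGV1 replicate 4. PABPN1 kept its call at 1.26 to 1.54 in all 18 alternatives in which it was tested, and the ratio of covered to free PAIP2 reads at -1.45 to -1.31 in all 11 that were added. Against a fold change of 1.2, the lists had 3 nucleotidyltransferases, 4 partners, 1 recruiting subunit, 2 surveillance genes and 1 export gene called; with a mean of at least 100 counts, 0 other poly(A) binding protein genes were tested.

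In the counts irrespective of strand the ratio changes were -0.342 for PAPOLA over PAPOLG, -0.0558 for PAIP1 over PAIP2 and 1.40 for PABPN1 over ZC3H14, with exact permutation adjusted p-values of 0.0571, 0.714 and 0.0571. With 1 library left out they lay between -0.410 and -0.285, 0.497 and 0.608, and 1.37 and 1.59, and adjusted p-values (exact permutation) reached 0.0762, 0.0762 and 0.0571. An adjusted p of 0.0571 was the lowest possible where PAIP1 over PAIP2 or PAPOLA over PAPOLG missed the smallest p. No pairing by replicate number was evident, though these values cannot exclude one, and the labels do not state it. Deviations from the group means correlated at 0.130, -0.0173, 0.0230 and 0.0338 for numbers 1 to 4, and 3 of 8 libraries correlated best with their own number. A replicate block called 7434 genes in place of 7302 and left PAPOLG at 0.331, PABPN1 at 1.36 and PAIP2 at -0.480, all called. Within replicate numbers the ratio changes of -0.342, 0.533 and 1.45 had exact sign-flip adjusted p-values of 0.167, a design in which no p under 0.05 is possible. Depth limits PABPN1 most, with 8 to 33 counts in a library.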
